A study of Mus musculus with 7 samples.

Results

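The genes described here are 10 genes of the NRF2 antioxidant response, measured in cultured mouse liver: the transcription factor gene Nfe2l2 and its inhibitor gene Keap1, and 8 target genes, Gclc, Gclm, Slc7a11, Gsr, Txnrd1, Srxn1, Nqo1 and Hmox1. They were taken by symbol from a list of the pathway, by a rule that uses no measured value although earlier results of these data were known, and each was found at its Ensembl identifier, so that they make up 10 of the 55487 genes in the count table. RNA came from precision-cut liver slices (PCLS), thin discs of liver kept on a shaker in Williams' Medium E, which were cut from healthy adult male BALB/c mice and collected on day 3 of culture. Slices of 3 libraries were kept in plain medium (CTR). Those of the other 4 were exposed to valproic acid (VPA), a branched short-chain fatty acid that inhibits class I histone deacetylases, at 2.5 mM. Slicing and 3 days of culture were common to both groups, and no uncultured liver was analysed here, so all values describe cultured slices. PCLS hold all cell types of the liver, and in such bulk RNA fewer cells of a type and less RNA per cell cannot be told apart.

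NRF2, the protein of Nfe2l2, is held by KEAP1, which hands it to a CUL3 ubiquitin ligase for destruction. Oxidants and electrophiles modify cysteines of KEAP1, NRF2 then escapes, pairs with a small MAF protein and binds antioxidant response elements near its target genes. Much of this control acts on the protein, so that mRNA of Nfe2l2 and Keap1 does not by itself measure NRF2 activity. In liver the targets serve glutathione synthesis, thioredoxin and sulfiredoxin chemistry, quinone reduction and heme breakdown, and they are known for protecting hepatocytes against drugs such as acetaminophen.

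QuantSeq libraries hold 1 short stretch near each transcript's poly(A) tail, so that counts do not grow with gene length. Levels of different genes are still listed values only, since how reads were assigned is not known, and Gapdh, a gene of high level in most tissues, had 33 to 203 counts per library. Library totals ran from 1743675 to 4773750 counts in CTR and from 1400887 to 3102450 counts in VPA, and levels are given as CPM, the counts scaled by library total and TMM factor. The level that 3 counts would give, taken as the upper limit for a gene without counts, lay between 0.591 and 2.41 CPM and covers counting error only. The table also listed well-counted genes at 0 in single libraries. Of the genes with at least 20 CPM in the other 6 libraries, 1 to 12 were listed at 0 in each CTR library and 18 to 118 in each VPA library, among them Polr2e and Dad1 in VPA replicate 1 and Btf3 in VPA replicate 3, genes that every cell uses, which were picked after their values were seen. For this reason a member at 0 is described as listed at 0. Each library came from a slice culture with its own number within the group and was counted as 1 replicate.

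All 10 genes passed edgeR's filter on low counts, and all 10 had a log2 fold change below 0 with VPA, against 54.2% of the 10876 genes tested (45.8% were above 0). The median log2 fold change of the 10 was −0.51, against −0.06 over all genes tested. Over the alternative fits that median ran from −0.80 without VPA replicate 3 to −0.35 without VPA replicate 2, against −0.07 and −0.06 over all genes tested. None passed the threshold in edgeR's quasi-likelihood test (0 higher and 0 lower at a Benjamini-Hochberg adjusted p under 0.05), where 1 gene in all was higher (0.00919% of those tested) and 0 were lower (0%). None passed with DESeq2 or limma-voom either. At an unadjusted p under 0.05, 4 of the 10 were lower (Nfe2l2, Keap1, Slc7a11 and Gclc) and 0 were higher, against 4.62% of all genes tested that were lower and 3.65% that were higher. That count was 0 without VPA replicate 1, 0 without VPA replicate 2, 1 without CTR replicate 3 (Srxn1, none of the 4), 1 without VPA replicate 4 (Keap1) and 2 without CTR replicate 1 (Keap1 and Nfe2l2). It was 3 without CTR replicate 2 (Gclc, Nfe2l2 and Slc7a11) and 5 without VPA replicate 3 (the 4 and Gclm), so the calls depended on single libraries. Over these 7 fits 2.83% to 6.22% of all genes tested were lower. Without VPA replicate 1 the log2 fold changes were −1.04 for Nfe2l2, −0.54 for Keap1, −1.03 for Slc7a11 and −1.07 for Gclc, close to those with all libraries given with each gene. Without CTR replicate 3 they were smaller, at −0.69, −0.46, −0.91 and −0.68, and without VPA replicate 2 they were −1.08, −0.47, −0.84 and −0.94. For none of the 10 did all VPA libraries lie above, or all lie below, the CTR libraries, while 4.44% of all genes tested were higher and 7.41% were lower without overlap. With fewer libraries the share of all genes tested that were lower without overlap is larger, and members are to be read against it: 4 of the 10 against 11.6% without VPA replicate 3, 3 against 14.2% without CTR replicate 2, and 1 against 9.63% without CTR replicate 1.

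**Figure D1:**
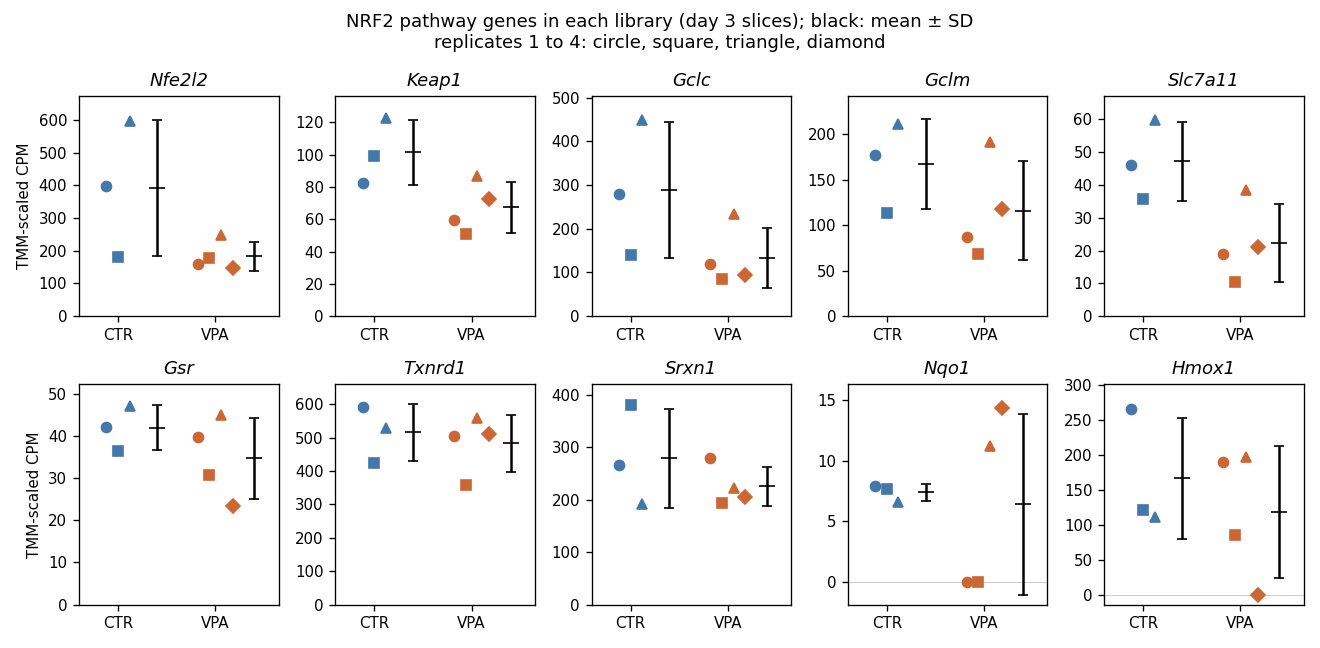
TMM-scaled CPM (vertical axes, each panel on its own scale) of the 10 genes in the 3 CTR (blue) and 4 VPA (orange) libraries, with marker shapes for replicates 1 to 4 and black bars for mean ± SD. The groups overlap in every panel, Nqo1 is listed at 0 in 2 VPA libraries and Hmox1 at 0 in 1.

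Nfe2l2 (ENSMUSG00000015839, GRCm38 chr2:75675513-75704641, − strand) encodes NRF2 itself. It had 399, 182 and 598 CPM in CTR replicates 1, 2 and 3. In VPA replicates 1 to 4 it had 160, 177, 248 and 147 CPM. Thus 3 VPA libraries had less than any CTR library, while VPA replicate 3 exceeded CTR replicate 2. The means were 393 ± 208 CPM (SD, n = 3) and 183 ± 45.0 CPM (SD, n = 4), a log2 fold change of −1.10 (standard error, SE, 0.383; 95% interval −1.99 to −0.21). Its unadjusted p was 0.0222, the smallest among the 10 genes and rank 467 of all genes tested, and its adjusted p from edgeR was 0.514. Leaving out CTR replicate 3, the library with the highest level, gave −0.69, and leaving out CTR replicate 2 gave −1.45.

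Keap1 (ENSMUSG00000003308, chr9:21229730-21239361, − strand) encodes the adaptor that holds NRF2 in the cytoplasm. Its levels were 82.7, 99.3 and 123 CPM in the CTR libraries. They were 59.4, 50.7, 86.7 and 72.5 CPM in VPA replicates 1 to 4, so that VPA replicate 3 alone exceeded a CTR library, replicate 1. On the log2 scale the difference was −0.60 (SE 0.236; 95% interval −1.15 to −0.05; edgeR adjusted p = 0.571). An antisense gene, Gm16754, covers the 3′ end of Keap1, and only 2 counts over all libraries were given to it. The inhibitor and the factor were thus both lower on average, and the ratio of Nfe2l2 to Keap1 in CPM was 4.82, 1.83 and 4.87 in the CTR libraries and 2.69, 3.49, 2.86 and 2.03 in the VPA libraries. CTR replicate 2 had the lowest ratio of all 7 libraries, and the other 2 CTR libraries exceeded every VPA library.

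**Figure D2:**
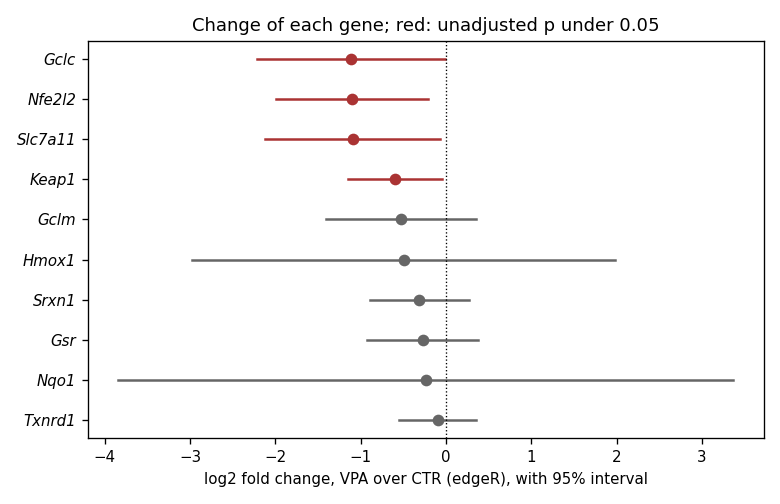
The log2 fold change of each gene, VPA over CTR, from edgeR's quasi-likelihood fit (points) with its 95% interval (lines), in order of size. The 4 genes with an unadjusted p under 0.05 are red; the intervals of the other 6 include 0, and those of Hmox1 (−2.97 to 1.98) and Nqo1 (−3.84 to 3.36) are the widest.

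Glutathione, the main thiol of liver cells, is made from cysteine by glutamate-cysteine ligase, whose catalytic subunit is encoded by Gclc and whose modifier subunit is encoded by Gclm. Gclc (ENSMUSG00000032350, chr9:77754535-77794485, + strand) had 279, 139 and 448 CPM in the CTR libraries. It had 120, 85.8, 234 and 93.6 CPM in VPA replicates 1 to 4. As for Nfe2l2, each VPA library other than replicate 3 had less than any CTR library. VPA over CTR, Gclc had a log2 fold change of −1.11 (SE 0.474; 95% interval −2.22 to −0.01), with an unadjusted p of 0.0486 and an edgeR adjusted p of 0.598, and of −0.68 without CTR replicate 3.

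Gclm (ENSMUSG00000028124, chr3:122245557-122270732, + strand) had 177, 114 and 211 CPM in the CTR libraries and 86.8, 68.3, 192 and 118 CPM in the VPA libraries. The 2 groups overlapped more for the modifier subunit, with VPA replicates 3 and 4 above CTR replicate 2. Gclm differed by −0.53 on the log2 scale (SE 0.378; 95% interval −1.41 to 0.35; edgeR adjusted p = 0.836), with −0.33 when VPA replicate 2 and −0.89 when VPA replicate 3 was left out. An antisense gene, Gm17494, covers the 3′ end of Gclm and was given 652 counts over the 7 libraries, and since the use of strand in the counting is not known, the level of Gclm is uncertain. The ratio of Gclc to Gclm in CPM was 1.57, 1.22 and 2.12 in the CTR libraries and 1.38, 1.26, 1.22 and 0.795 in the VPA libraries.

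Slc7a11 (ENSMUSG00000027737, chr3:49892526-50443614, − strand) encodes xCT, the subunit of the cystine/glutamate antiporter that brings in cystine for glutathione synthesis. It had 46.1, 35.7 and 59.8 CPM in the CTR libraries. In VPA replicates 1 to 4 it had 18.9, 10.5, 38.5 and 21.1 CPM, again with VPA replicate 3 above CTR replicate 2 and the rest under every CTR library. This gave a log2 fold change of −1.09 (SE 0.441; 95% interval −2.12 to −0.07; edgeR adjusted p = 0.575). These levels rest on 28 to 48 counts per VPA library and on 109 to 181 per CTR library. Gsr (ENSMUSG00000031584, chr8:33652523-33698163, + strand), the glutathione reductase that returns oxidized glutathione to its thiol form, was closer between the groups, at 36.5 to 47.1 CPM in the CTR libraries and 23.4 to 45.0 CPM in the VPA libraries. It differed by −0.27 on the log2 scale (SE 0.280; 95% interval −0.92 to 0.38; edgeR adjusted p = 0.910), with −0.13 when VPA replicate 4 and −0.42 when VPA replicate 3 was left out.

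NRF2 binds through the antioxidant response element, so the start regions of these genes were searched for its core, TGACNNNGC, on both strands. RefSeq windows of 300 bases on GRCm38.p6, from 250 before to 50 after a start, were at hand for 7 of the 10 genes (Nqo1, Gclm, Txnrd1, Srxn1, Slc7a11, Nfe2l2 and Keap1), with 3 windows for Txnrd1. The core was found in 4 of these 9 windows and in 12.4% of all 32851 windows. A match is a description of letters and not a tested site, and elements outside a window are not seen. The 4 windows with a match are printed 5′ to 3′ on the strand of the gene, with the match in capitals, so that its place relative to the start can be read.
Gclm, chr3:122245307-122245606, + strand: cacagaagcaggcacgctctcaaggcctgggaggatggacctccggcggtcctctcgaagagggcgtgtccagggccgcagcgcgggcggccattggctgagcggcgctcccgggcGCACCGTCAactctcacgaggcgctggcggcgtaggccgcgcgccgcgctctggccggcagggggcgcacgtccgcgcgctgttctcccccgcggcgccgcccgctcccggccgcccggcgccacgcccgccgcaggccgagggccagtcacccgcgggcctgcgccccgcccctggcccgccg
Nfe2l2, chr2:75704614-75704913, − strand: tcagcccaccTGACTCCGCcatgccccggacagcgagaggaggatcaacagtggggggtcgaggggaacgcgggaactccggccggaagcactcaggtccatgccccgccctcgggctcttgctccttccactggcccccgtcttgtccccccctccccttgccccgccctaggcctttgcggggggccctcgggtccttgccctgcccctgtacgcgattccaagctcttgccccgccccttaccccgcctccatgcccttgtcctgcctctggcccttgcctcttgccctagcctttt
Txnrd1, chr10:82858956-82859255, + strand: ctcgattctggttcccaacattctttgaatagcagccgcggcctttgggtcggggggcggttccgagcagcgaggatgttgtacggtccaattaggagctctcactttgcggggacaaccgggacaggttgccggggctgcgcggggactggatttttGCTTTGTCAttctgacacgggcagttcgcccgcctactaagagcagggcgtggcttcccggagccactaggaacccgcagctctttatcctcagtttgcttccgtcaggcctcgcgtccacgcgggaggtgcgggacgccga
Srxn1, chr2:152105274-152105573, + strand: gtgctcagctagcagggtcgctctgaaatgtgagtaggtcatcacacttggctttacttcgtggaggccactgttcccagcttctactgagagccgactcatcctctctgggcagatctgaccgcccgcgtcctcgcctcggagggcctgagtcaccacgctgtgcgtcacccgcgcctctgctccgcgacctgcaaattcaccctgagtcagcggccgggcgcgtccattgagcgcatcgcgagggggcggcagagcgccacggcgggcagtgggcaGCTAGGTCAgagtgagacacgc

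In Gclm the core lies on the opposite strand at chr3:122245423-122245431, upstream of the start. In Txnrd1 it lies on the opposite strand at chr10:82859114-82859122, upstream of the second of the 3 starts and inside the gene as annotated, and the window of the first start holds none. In Srxn1 it lies on the opposite strand just past the start, at chr2:152105552-152105560, and in Nfe2l2 it lies on the gene's own strand, at chr2:75704895-75704903. Genes with a match ranged in log2 fold change from −1.10 (Nfe2l2) to −0.10 (Txnrd1), and genes whose window held none from −1.09 (Slc7a11) to −0.24 (Nqo1).

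Thioredoxin reductase and sulfiredoxin repair oxidized thiols and peroxiredoxins, and their genes were among the best counted of the 10. Txnrd1 (ENSMUSG00000020250, chr10:82833951-82897712, + strand), the cytosolic thioredoxin reductase, had 592, 426 and 529 CPM in the CTR libraries. It had 504, 359, 558 and 511 CPM in the VPA libraries, with 3 of the 4 inside the CTR range. The difference was −0.10 on the log2 scale (SE 0.194; 95% interval −0.55 to 0.36; edgeR adjusted p = 0.960). The direction turned to 0.030 without VPA replicate 2 and to 0.0046 without CTR replicate 1.

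Srxn1 (ENSMUSG00000032802, chr2:152105516-152111376, + strand), which encodes sulfiredoxin, had 266, 380 and 192 CPM in the CTR libraries and 279, 193, 223 and 206 CPM in VPA replicates 1 to 4. Every VPA value lay inside the CTR range. For Srxn1 the log2 fold change came to −0.31 (SE 0.248; 95% interval −0.89 to 0.27; edgeR adjusted p = 0.867), with −0.03 when CTR replicate 2 and −0.54 when CTR replicate 3 was left out. Its highest level was in CTR replicate 2, the library with the lowest CTR levels of Nfe2l2, Gclc, Gclm, Slc7a11, Gsr and Txnrd1, and its lowest was in CTR replicate 3, which had the highest Nfe2l2 and Gclc.

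Nqo1 and Hmox1, a pair of genes often used to report NRF2 activity, could not be compared firmly. Nqo1 (ENSMUSG00000003849, chr8:107388225-107403206, − strand), the quinone reductase, had the lowest level of the 10 genes, with 7.88, 7.69 and 6.58 CPM in the CTR libraries from 20, 39 and 12 counts. It was listed at 0 in VPA replicates 1 and 2 and had 11.2 and 14.3 CPM in VPA replicates 3 and 4, from 14 and 19 counts. The VPA libraries thus lay on both sides of all CTR libraries, 2 below and 2 above. Its log2 fold change was −0.24 with a wide error (SE 1.55; edgeR adjusted p = 0.986), and it turned to 0.17 without VPA replicate 1 and 0.20 without VPA replicate 2. Other fits gave −3.07 (limma-voom) and −3.59 (replicate number as a block).

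Hmox1 (ENSMUSG00000005413, chr8:75093621-75100589, + strand) encodes heme oxygenase 1, which opens heme into biliverdin and iron and is controlled by BACH1 as well as NRF2. It had 266, 122 and 112 CPM in the CTR libraries. It had 191, 86.1 and 197 CPM in VPA replicates 1, 2 and 3, and was listed at 0 in VPA replicate 4, in a library where 2.27 CPM would give 3 counts. In that library 36 of 4304 genes with at least 20 CPM in all other libraries were at 0, Hmox1 and Pgd among them. With all libraries Hmox1 had a log2 fold change of −0.49 (SE 1.06; edgeR adjusted p = 0.961), which was −0.09 without VPA replicate 4. Without CTR replicate 1, the library with the highest level, it was 0.00048. Other fits gave −1.89 (limma-voom), −1.26 (slice culture as a block) and −0.07 (replicate number as a block).

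With that limit, the order of listed mean levels in the CTR libraries, from high to low, was Txnrd1, Nfe2l2, Gclc, Srxn1, Gclm, Hmox1, Keap1, Slc7a11, Gsr and Nqo1, from 516 CPM down to 7.38 CPM. Neighbours in this order overlapped in their CTR range except Keap1 with Slc7a11 and Gsr with Nqo1. In the VPA libraries Txnrd1 was again first (483 CPM) and Nqo1 last (6.40 CPM), while Srxn1 (226 CPM) came before Nfe2l2 (183 CPM) and Gclc (133 CPM). The spread within a group differed between genes, with a coefficient of variation in CTR of 53.0% for Nfe2l2 and 53.6% for Gclc, against 12.7% for Gsr and 16.3% for Txnrd1.

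The summed level of the 8 targets was 1676, 1260 and 1606 CPM in the CTR libraries and 1240, 834, 1500 and 987 CPM in the VPA libraries. VPA replicate 3 had the highest VPA value for 8 of the 10 genes, and CTR replicate 2 had the lowest CTR value for 6 of them. Over the 7 libraries Gclc with Nfe2l2 had the highest correlation of the 45 pairs (Pearson's r of log2 CPM 0.95, Spearman's rho 0.89; r = 0.91 after removal of the group means, and 0.86 without CTR replicates 1 and 3, the libraries farthest from the median Nfe2l2). After removal of the group means Gclm with Slc7a11 was closer (r = 0.96). Slc7a11 with Nfe2l2 had r = 0.78 and rho = 0.86, and r = 0.53 without those libraries. Srxn1 with Nfe2l2 had r = −0.26 and rho = −0.21, r = −0.79 after removal of the group means, and r = −0.015 without those libraries. All genes share the depth and scaling of each library, and these values describe 7 libraries only.

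**Figure D3:**
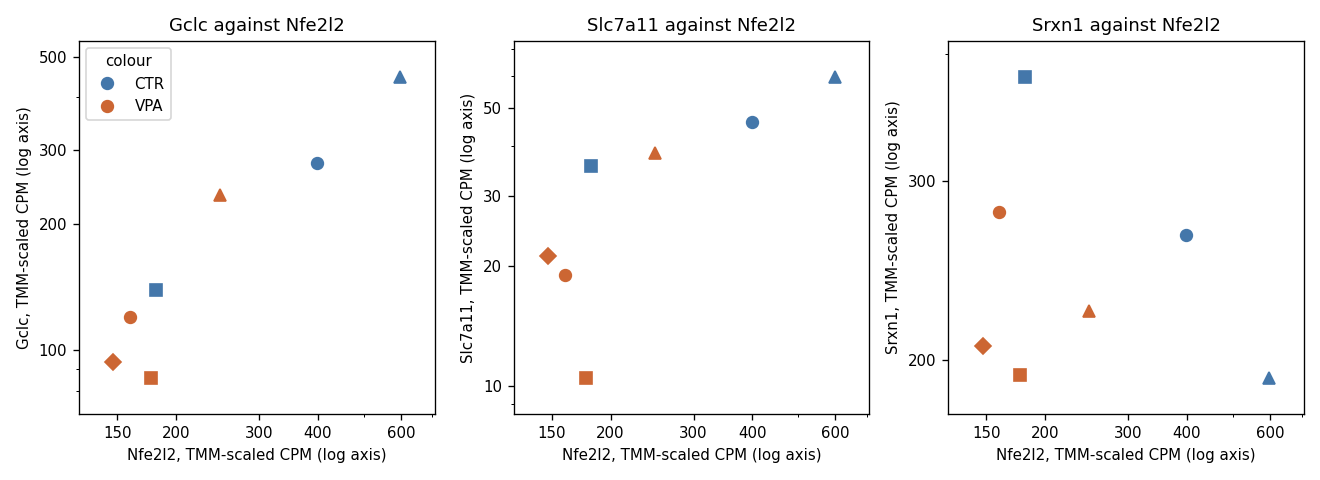
Levels of Gclc, Slc7a11 and Srxn1 (vertical log axes, TMM-scaled CPM) against Nfe2l2 (horizontal log axis, TMM-scaled CPM), 1 point per library, CTR blue and VPA orange, with marker shapes for replicates 1 to 4. Gclc is at 139 CPM or less in the 4 libraries with the least Nfe2l2 and highest (448 CPM) in the library with the most, while Srxn1 is highest (380 CPM) in a library with 182 CPM of Nfe2l2.

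The genes outside the list whose log2 CPM over the 7 libraries was most like that of Nfe2l2, among 6391 with a mean of at least 20 CPM, were Ppp6r1 (r = 0.98), Lpp (r = 0.98), Cd2ap (r = 0.98), Krt8 (r = 0.97) and Etl4 (r = 0.97). With the group means removed r stayed between 0.96 and 0.97. Krt8, the keratin of simple epithelia that hepatocytes carry, had 657 CPM in CTR and 272 CPM in VPA on average (log2 fold change −1.27, edgeR adjusted p = 0.575). Lpp, an adaptor of focal adhesions, had 302 and 190 CPM (log2 fold change −0.67, edgeR adjusted p = 0.615).

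Other genes of the pathway were taken from 7 lists of 129 genes written from general knowledge, of which 108 were tested. By edgeR 0 passed at an adjusted p under 0.05, and at an unadjusted p under 0.05 there were 4 genes with a higher and 9 with a lower level in VPA. Over all genes tested these shares were 3.65% and 4.62%, against which the counts of each list are also to be read. The median log2 fold change of the 108 was −0.18, against −0.06 over all genes tested. DESeq2 called 3 of them lower at an adjusted p under 0.05 (Prdx6, Cyp2a5 and Crebbp) and 0 higher, where it called 0.754% of all its genes lower and 0.256% higher.

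Among 19 regulators and partners of NRF2 the median log2 fold change was −0.08, with 11 below 0 and 8 above. At an unadjusted p under 0.05, 2 were lower (Crebbp and Smarca4) and 0 were higher. Crebbp, the acetyltransferase CBP that NRF2 recruits, had 310, 316 and 280 CPM in the CTR libraries and 166 to 217 CPM in the VPA libraries, without overlap (log2 fold change −0.66, SE 0.149, adjusted p = 0.295 in edgeR, 0.0292 in DESeq2). Smarca4, the remodeller BRG1, had 168 to 191 CPM and 127 to 154 CPM, also without overlap (log2 fold change −0.35, edgeR adjusted p = 0.561).

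Of 11 genes tested for glutathione handling, 1 in each direction had an unadjusted p under 0.05, and the median was −0.18. Glrx5, a mitochondrial glutaredoxin of iron-sulfur cluster assembly, had 66.3 to 123 CPM in CTR and 124 to 209 CPM in VPA (log2 fold change 0.90, edgeR adjusted p = 0.447). Gpx4, the peroxidase of lipid hydroperoxides, had 101 to 181 CPM in CTR and 44.6 to 112 CPM in VPA (log2 fold change −0.96, edgeR adjusted p = 0.513).

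The 17 thioredoxin, peroxiredoxin and superoxide genes had a median of −0.06, and 2 peroxiredoxins lay on opposite sides. Prdx6, a cytosolic peroxiredoxin that works with glutathione, had 367, 460 and 295 CPM in the CTR libraries and 189, 185, 197 and 194 CPM in the VPA libraries, with no overlap and little spread under VPA. Its log2 fold change was −0.97 (SE 0.168; edgeR adjusted p = 0.154, 0.00111 from DESeq2, and 0.0387 in edgeR when every library had to hold 10 counts or more). Prdx5, a peroxiredoxin of mitochondria and peroxisomes, had 217, 327 and 310 CPM in CTR and 733, 612, 510 and 354 CPM in VPA, again without overlap (log2 fold change 0.96, SE 0.273, edgeR adjusted p = 0.398).

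The 10 genes of NADPH supply, which feeds glutathione and thioredoxin reductases, had a median of −0.26, with 2 lower at an unadjusted p under 0.05 and 0 higher. These were Pgls (log2 fold change −0.92, edgeR adjusted p = 0.552) and Tkt (−0.95, edgeR adjusted p = 0.582). Of the 10 genes 7 were below 0 and 3 above. Pgls and Tkt serve the pentose phosphate route, and the other genes of that route in the list lay on both sides of 0. Of 23 detoxification genes tested, 17 had a log2 fold change below 0, the median was −0.38, and 1 in each direction had an unadjusted p under 0.05. Cbr1, a carbonyl reductase, had 78.1 ± 18.5 CPM in CTR and 116 ± 21.4 CPM in VPA (SD, n = 3 and n = 4; log2 fold change 0.57, edgeR adjusted p = 0.575; 0.38 without CTR replicate 1). Cyp2a5, the coumarin hydroxylase of mouse liver, had 20.9, 8.48 and 14.3 CPM in CTR and was listed at 0 in all 4 VPA libraries. Its adjusted p was 0.285 in edgeR and 0.000374 in DESeq2. The CTR mean was 7.70-fold the mean level that 3 counts would give in the VPA libraries, a limit that covers counting error only. Cyp2a5 passed edgeR's filter through its CTR counts alone, and well-counted genes were also listed at 0 in single VPA libraries. Its near-identical neighbour Cyp2a4 can share reads with it, so its level is uncertain.

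Of 11 iron and heme genes tested, 1 in each direction had an unadjusted p under 0.05, and the median was 0.09. Alas1, the first enzyme of heme synthesis, had 27.2 to 32.3 CPM in CTR and 32.9 to 62.7 CPM in VPA (log2 fold change 0.68, edgeR adjusted p = 0.571). Slc48a1, a heme transporter, had 407 to 491 CPM in CTR and 258 to 367 CPM in VPA (log2 fold change −0.56, edgeR adjusted p = 0.395). In neither gene did the groups overlap. Slc7a11 is also induced by ATF4, and of 17 ATF4 response genes tested 1 was lower and 0 higher at an unadjusted p under 0.05, with a median of −0.08. That gene was Atf5, a transcription factor of the amino acid response, with 273, 303 and 287 CPM in CTR and 141, 97.5, 194 and 180 CPM in VPA (log2 fold change −0.91, SE 0.237, edgeR adjusted p = 0.339).

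**Figure D4:**
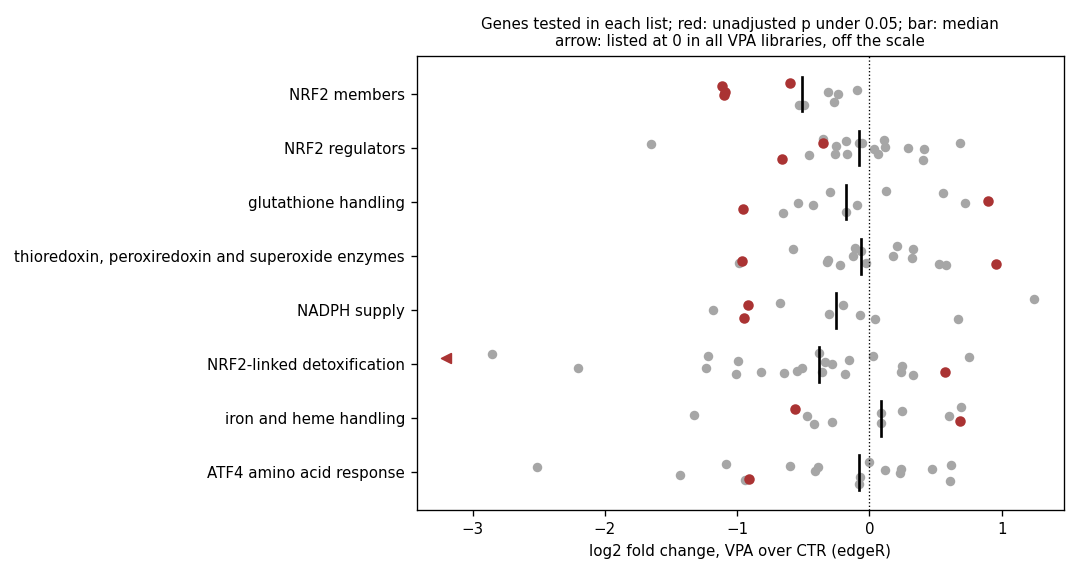
The log2 fold change (horizontal axis, VPA over CTR, edgeR) of every gene tested among the 10 NRF2 pathway genes and the 7 other lists (rows), with a black bar at the median of each list and red for an unadjusted p under 0.05. All 10 points of the first row lie below 0, though Nqo1, Hmox1 and Txnrd1 turned above 0 with 1 library left out. Every other list holds genes on both sides. Of these, 17 of 23 detoxification and 7 of 10 NADPH genes lie below 0, and 6 of 11 iron and heme genes lie above. The arrow is Cyp2a5, off the scale.

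Levels of cell type markers were read in the same libraries, because the pathway is used by several liver cell types. The summed level of 12 hepatocyte markers, 1 of which (Ass1) was listed at 0 in every library, was 6792 to 19513 CPM in CTR and 5194 to 16947 CPM in VPA. It was highest within its group in CTR replicate 3 and VPA replicate 3. These libraries were also highest in their group for Nfe2l2, Keap1, Gclc, Gclm, Slc7a11 and Gsr. That match was not tested and is not to be read as particular to hepatocytes. In VPA replicate 3 the transferrin gene Trf alone gave 8931 CPM of the hepatocyte sum. The albumin gene Alb was instead highest in VPA replicate 1 (5066 CPM, against 1910 CPM in VPA replicate 3). The sum of 12 stellate cell markers was 3823 to 6939 CPM in CTR and 2512 to 4387 CPM in VPA, and 5 of these genes had an unadjusted p under 0.05 with a lower level (4 by DESeq2 at an adjusted p under 0.05). The sum of 12 endothelial markers was 367 to 460 CPM in CTR and 153 to 372 CPM in VPA, with Clec4g at 0 in all CTR libraries. Of 10 endothelial markers tested, 8 were below 0 and 2 above (median −0.50), and 0 had an unadjusted p under 0.05. Among them 3 were lower without overlap, against 7.41% of all genes tested. The sums of 12 macrophage markers (305 to 455 CPM in CTR and 332 to 571 CPM in VPA) overlapped between the groups. Of the macrophage markers, Adgre1 and Marco were at 0 in every library, Timd4 in the CTR libraries and Cd163 and Vsig4 in the VPA libraries. The 5 red cell genes, a source of heme, summed to at most 4.82 CPM in any library. The share of counts on mitochondrially encoded genes was 14.5% to 27.7% in CTR and 23.9% to 32.5% in VPA. The number of genes with a count was 17744 to 19756 in CTR and 14359 to 16761 in VPA, without overlap (two-sided exact permutation p = 0.0286, the smallest that 3 against 4 libraries can give). The part of cell type makeup and of RNA quality in the levels of the 10 genes was not tested.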

How the data were processed

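RNA of mouse PCLS on day 3 of culture was analysed in 3 CTR and 4 VPA libraries. The authors prepared QuantSeq 3′ libraries, trimmed single-end reads, mapped them to GRCm38 (mm10 in the submitters' processing notes) with STAR, assembled genes with StringTie and deposited raw read counts per Ensembl gene. How reads were assigned to genes, whether by strand, and what was done with multi-mapping reads is not given in the sources used here. Condition, replicate and slice culture number came from the sample labels. Symbols and coordinates came from GENCODE M21, which left 260 of 55487 genes without a symbol.

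R 4.3.3 was used with edgeR 4.0.16 (filterByExpr, TMM, robust quasi-likelihood test of VPA against CTR without covariates). P-values were adjusted by Benjamini-Hochberg over all 10876 genes, and 0.05 was the threshold. The study names DESeq2, which was run as an alternative (DESeq2 1.42.0), as were limma-voom (limma 3.58.1), other normalizations and filters, blocks, and leaving out each library. Standard errors and 95% intervals came from edgeR's F statistic. Log2 CPM has a prior count of 2. The biological coefficient of variation was 0.609. The code was tested on simulated data. Libraries of the same group differed beyond sampling noise (chi-square per degree of freedom 13.0 to 24.3), and p-values measure the spread between these libraries. The 95% intervals cover the spread between libraries, and the floors cover counting error only.

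Besides the 10 genes, the text names genes of the other lists with an adjusted p under 0.05, then up to 3 in each direction with the smallest unadjusted p under 0.05, and the 5 genes most correlated with the member of smallest p. Members and lists were chosen with earlier results of these data known. Genes of lists that were never tested had too few counts. The cholangiocyte markers are not reported here.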

Additional observations from a re-analysis of the deposited data

Results flagged for a closer look

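The total of VPA replicate 2, 3102450 counts, stood apart from those of the other VPA libraries (1400887 to 1515954 counts), with a gap to the nearest of 0.932 of the group's range, above Dixon's critical value of 0.829 for 4 samples. Chance flags a share of about 0.05 of such groups, and none of the 10 NRF2 pathway genes had a VPA library that far from the rest. The 10 genes were not the highest in this library: it had the lowest VPA level of Keap1 (50.7 CPM), Gclc (85.8 CPM), Gclm (68.3 CPM), Slc7a11 (10.5 CPM), Txnrd1 (359 CPM) and Srxn1 (193 CPM), and listed Nqo1 at 0.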

How the results depend on the processing

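The count of 0 NRF2 pathway genes at an adjusted p under 0.05 was 0 under every alternative run. The count of 4 lower at an unadjusted p under 0.05 was between 3 and 5 under the other tools, normalizations, filters and blocks, where 4.27% (upper quartile normalization) to 10% (limma-voom) of all genes were lower, and between 0 and 5 with each library left out (the libraries are named with the result); no member was higher. The number of members lower without overlap was 1 with library totals only in place of TMM (9.89% of all genes tested), and between 0 and 4 with each library left out (9.58% to 14.2%). With each library left out, 3 of the 10 changed direction at least once: the log2 fold change of Nqo1 ran from −1.05 to 0.20, of Hmox1 from −0.86 to 0.00048 and of Txnrd1 from −0.23 to 0.030. Over all alternatives Nqo1 ran from −3.59 and Hmox1 from −1.89. The filter of at least 10 counts in every library removed Nqo1 and Hmox1. For the other pathway genes the alternatives were added after the data were seen. Their count at an adjusted p under 0.05 was 3 with DESeq2 and 1 with that filter in place of 0. Their counts at an unadjusted p under 0.05 were 2 higher with library totals only (2.22% of all genes) and 16 lower without a filter (4.88%), and with each library left out they ran from 2 to 4 higher and from 6 to 14 lower (the fewest when CTR replicate 1 and the most when VPA replicate 4 was left out). The cause was not tested for these.

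CTR and VPA libraries share slice culture and replicate numbers. The correlation of deviations from the group means was 0.107 within slice culture 71, 0.0256 within 72 and 0.0546 within 74. It was −0.0539 for replicate number 1, 0.0546 for number 2 and 0.107 for number 3. Replicate numbers 2 and 3 join the same libraries as slice cultures 74 and 71, so their values are not separate. No correlation was taken between unmatched libraries, so these values cannot decide whether a number pairs the libraries. The paper counts each mouse liver as 1 biological repeat. Whether a slice culture number marks 1 liver is not given in the sources used here. Within the 3 slice cultures that both groups share, 6 members (Nfe2l2, Keap1, Gclc, Gclm, Slc7a11 and Gsr) were lower with VPA each time, against 19.9% of all genes tested; for Slc7a11 the log2 differences were −0.62, −1.09 and −1.69 in slice cultures 71, 72 and 74, and for Nfe2l2 −1.27, −1.43 and −0.04. With slice culture as a replicate block, which leaves VPA replicate 1 without a partner, 0 members had an adjusted p under 0.05, 4 were lower at an unadjusted p under 0.05 (Gclc, Gclm, Nfe2l2 and Slc7a11), and 9 other pathway genes were lower (4.67% of all genes tested). With replicate number as the block the values were 0, 5 and 14 (5.63%). At 1400887 to 4773750 counts per library Nqo1 had the fewest counts of the members, at most 39.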
